A study of Mus musculus with 4 samples.

Results

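The expression of 10 nuclear genes whose products transcribe, copy or protect the mitochondrial genome was followed in mouse embryos at the late 2-cell stage: Tfam, Polrmt, Tfb2m, Tfb1m, Polg, Polg2, Ssbp1, Lrpprc, Slirp and Nrf1. These 10 genes were taken by symbol from the 47445 gene identifiers in each library's table, and each had 1 identifier and 1 row. The series asked whether the gene Uqcc3, which encodes an assembly factor of respiratory chain complex III, matters for early development. The study compared 2 groups. In the Uqcc3 siRNA group (2 libraries), fertilized oocytes of the strain C57BL/6N from females aged 8 weeks were injected with 5 µM siRNA against Uqcc3 at 8 hpi. In the control group (2 libraries), embryos of that strain and maternal age received, per the labels' protocols, a negative-control siRNA at 5 µM and 8 hpi. The sources differ here, since the treatment label reads none and the design text calls the controls normal. In both groups only embryos of normal morphology were collected. No source used here gives how many embryos went into each library. Nothing in the labels says that the libraries of a group came from separate mothers or injection days, so p-values cover only library-to-library spread, which may be technical. Library titles end in a code that differs between the groups and is not explained, and any batch it marks cannot be told apart from the siRNA. A bulk library cannot tell fewer cells from less RNA per cell.

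Mitochondria carry their own small circular genome, which encodes a few subunits of the respiratory chain, and every protein that transcribes or copies it is made from nuclear genes. In the textbook account, Tfam bends and packages the DNA at the promoters, Tfb2m melts the promoter for the single-subunit RNA polymerase Polrmt, and the polymerase gamma subunits Polg and Polg2 copy the genome with the single-strand binding protein Ssbp1. The oocyte loads the embryo with mitochondrial DNA, and its copying is known to be largely at rest during cleavage, so these transcripts are measured at a stage that lives on a maternal stock.

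Levels are given as FPKM, fragments scaled to the length of the transcript in kilobases and to the mapped fragments of the library, with the lower and upper bound that the authors' program gave for each value. The spacing of those bounds implied a depth of about 11900000 and 12000000 fragments in Uqcc3 siRNA replicates 1 and 2 and 16900000 and 19300000 in control replicates 1 and 2. Genes at 1 FPKM or more numbered 12073 and 9771 in the siRNA libraries and 12202 and 11818 in the controls. Uqcc3 siRNA replicate 2 stood apart: its highest correlation with another library across genes was 0.651, against 0.872 to 0.875 for the other 3. It had 14506 FPKM of the ribosomal RNA Rn18s-rs5, against 183 to 1023 FPKM in the other 3. In it, genes whose longest transcript is under 1500 bases had a median log2 difference from the controls of -1.40, against 0.11 for genes over 3000 bases. In replicate 1 these medians were -0.36 and -0.25. The target Uqcc3 stood at 23.7 and 19.8 FPKM in Uqcc3 siRNA replicates 1 and 2 and at 147 and 211 FPKM in control replicates 1 and 2 (log2 difference -2.97, limma adjusted p = 0.745). Of 9 markers of the late 2-cell embryo, 8 reached 1 FPKM in every library, and Gm6763 was listed at 0 in all 4. Their summed level was 827 and 478 FPKM in the siRNA libraries and 1248 and 1538 FPKM in the controls. With siRNA, Obox6, Zfp352, Zscan4d, Tcstv1 and Tcstv3 lay below both controls, as 30.0% of all tested genes did. Zscan4c, Usp17lc and Eif1a overlapped. Whether the groups differed in stage was not tested. All 9 oocyte markers reached 1 FPKM in every library, with sums of 1664 and 1242 FPKM with siRNA and 1748 and 2052 FPKM in controls. Oosp1 made up most of each sum, at 1401 and 859 FPKM with siRNA and 1524 and 1795 FPKM in controls. The others went both ways: with siRNA, Zp3 lay below both controls, Nlrp5 and Bmp15 lay above them, and the rest overlapped. Markers of other cells had lower sums. For 9 cumulus and granulosa genes these were 7.92 and 0.882 FPKM with siRNA and 3.47 and 14.1 FPKM in controls. Amh and Fshr were listed at 0 in all 4 libraries. The sums were 17.7 and 0.191 FPKM with siRNA against 7.25 and 5.27 FPKM in controls for 7 sperm genes (Akap4 listed at 0 in all 4), and 28.5 and 9.23 FPKM with siRNA against 28.0 and 28.5 FPKM in controls for 7 blood genes (Hbb-bs listed at 0 in all 4). Some single markers of other cells still reached the level of the scarcer of the 10 genes. Tnfaip6 stood at 14.1 FPKM and Hba-a1 at 18.8 FPKM in control replicate 2. Prm2 stood at 12.3 FPKM in siRNA replicate 1. What the quality of siRNA replicate 2 or these markers contribute to any value was not tested.

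The comparison asked which of the 10 transcripts differed between Uqcc3 siRNA embryos and controls. Differences are on the log2(FPKM + 1) scale, siRNA minus control, which understates changes of low genes, and were tested with limma over all genes at 1 FPKM or more in at least 2 of the 4 libraries. Of the 10 genes 9 entered the test, and Lrpprc did not reach the filter. None of the 9 passed an adjusted p of 0.05 (adjusted p in limma from 0.745 to 0.999), as was so for all 12390 genes tested (0 genes, 0%). Before adjustment, 1 of the 9, Tfb2m, had a limma p under 0.05, against 738 of all tested genes (5.96%), of which 646 were lower (5.21%) and 92 higher (0.743%) with siRNA. In 4 of the 9, Tfb2m, Slirp, Ssbp1 and Nrf1, the siRNA values were both under the 2 control values (44.4%, against 30.0% of all tested genes). In 1 of the 9, Polg, both lay above (11.1%, against 8.60% of all tested genes). The controls alone would not have put Polg through the filter, since of them only replicate 2 reached 1 FPKM. The median log2 difference of the 9 was -0.63, against -0.39 for all tested genes. That gap of -0.24 turned to 0.26 without siRNA replicate 2 and to 0.30 without siRNA replicate 1. With median-of-ratios scaling, which put the median of all genes at -0.07, 2 of the 9 lay below (against 18.8% of all tested genes) and 1 above (against 17.3%). With TPM, where Lrpprc enters, 1 of 10 lay below (Tfb2m, against 20.6% of all tested genes) and 3 above (Polg, Polrmt and Lrpprc, against 13.8%). Lrpprc met the filter there through the siRNA libraries, where it was higher, so its place above was fixed by the filter. These counts describe these libraries and set nothing apart about the 10 genes.

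**Figure D1:**
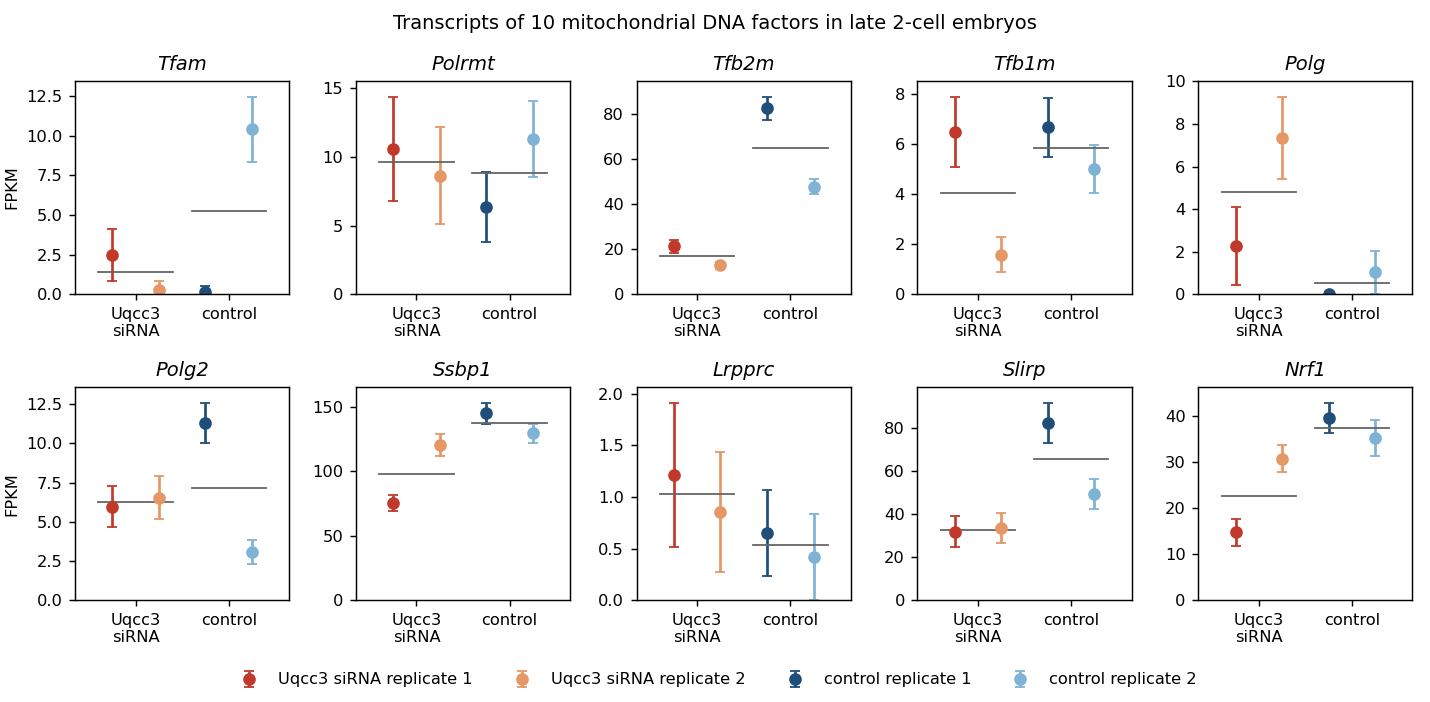
FPKM of each of the 10 genes in the 4 libraries on linear axes that differ between panels. Points are libraries, error bars the authors' lower and upper bounds, and grey lines the mean of 2 libraries. Tfb2m and Slirp show siRNA bounds clear of the control bounds, and Tfam and Polg2 show controls that lie far apart.

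Tfb2m, the transcription factor that opens mitochondrial promoters for Polrmt, gave the lowest p of the 10. The gene (ENSMUSG00000026492.11) lies on chromosome 1 from 179528055 to 179546267 on the minus strand of mm10, with 8 exons in its main coding transcript. Tfb2m stood at 21.2 FPKM (bounds 18.4 and 24.0) in Uqcc3 siRNA replicate 1 and 12.8 FPKM (11.2 and 14.3) in replicate 2, and at 82.5 FPKM (77.4 and 87.5) in control replicate 1 and 47.6 FPKM (44.3 and 50.9) in control replicate 2. The groups did not overlap, and neither did their bounds. The mean was 17.0 ± 5.98 FPKM with siRNA and 65.0 ± 24.7 FPKM in controls (SD, n = 2 each), or 26.1% of the control mean. The log2 difference was -1.86 (SE 0.72, limma adjusted p = 0.745). Of all tested genes, 9.09% had a more negative difference. Leaving out siRNA replicate 2 or replicate 1 gave -1.52 and -2.21.

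A pseudogene limits how that value is read. Gm1818, an unprocessed pseudogene on chromosome 12, matches 1187 of the 1188 coding bases of Tfb2m at 99.3% identity, so reads can be split between the pair. Gm1818 stood at 18.6 and 1.19 FPKM in Uqcc3 siRNA replicates 1 and 2 and at 40.5 and 36.4 FPKM in control replicates 1 and 2, lower in both siRNA libraries as well. With the pair summed, a step added after the values were seen, it was -2.06 (limma adjusted p = 0.745). Under 3 scalings between libraries Tfb2m still lay below the controls in each siRNA library, with log2 differences of -1.47 (TPM), -1.45 (median of ratios) and -1.49 (quantile normalization). Its unadjusted p was then no longer under 0.05.

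Tfb1m, the paralog that mainly methylates the small ribosomal RNA of mitochondria, did not follow Tfb2m in both libraries. It stood at 6.50 and 1.57 FPKM in Uqcc3 siRNA replicates 1 and 2 and at 6.67 and 5.00 FPKM in control replicates 1 and 2. Replicate 1 lay among the controls and replicate 2 below them, with bounds of 0.870 and 2.28 FPKM. On the log2 scale it differed by -0.63 (SE 1.03, limma adjusted p = 0.895), and it was 0.14 without siRNA replicate 2. The gene (ENSMUSG00000036983.6) lies on chromosome 17 from 3519256 to 3557781, and 142 of its 1402 transcript bases lie on exons of Tiam2 on the other strand, which stood at 2.94 and 15.1 FPKM with siRNA and 3.21 and 3.66 FPKM in controls.

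Tfam, the packaging factor that sets the number of genome copies in many cell types, had controls that lay far apart. It stood at 2.47 and 0.294 FPKM in Uqcc3 siRNA replicates 1 and 2 and at 0.119 and 10.4 FPKM in control replicates 1 and 2. The control values differed 87.4-fold, and both siRNA values lay between them. Read as counting error alone, the bounds implied about 9.32 and 1.22 fragments with siRNA and 0.332 and 104 in the controls. By those bounds 3 of the 4 values were imprecise. On the log2 scale the groups differed by -0.75 (SE 1.24, limma adjusted p = 0.895). It was 0.92 without control replicate 2 and -2.43 without control replicate 1, so it gave no direction. Tfam (ENSMUSG00000003923.14) lies on chromosome 10 from 71225464 to 71238280.

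Polrmt, the RNA polymerase of mitochondria, was at 10.6 and 8.64 FPKM in Uqcc3 siRNA replicates 1 and 2 and at 6.33 and 11.3 FPKM in control replicates 1 and 2. Both siRNA values lay between the controls, with a mean of 9.61 ± 1.37 FPKM with siRNA and 8.81 ± 3.50 FPKM in controls (SD, n = 2 each). Their log2 difference was 0.16 (SE 0.88, limma adjusted p = 0.977), and it was -0.22 without control replicate 1. Polrmt (ENSMUSG00000020329.12) lies on chromosome 10 from 79736123 to 79746581. Of Tfb2m, Tfb1m, Tfam and Polrmt, Tfb2m was thus the one whose groups did not overlap.

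Ssbp1, which coats single-stranded DNA during copying, was the most abundant of the 10 in both groups. It stood at 75.5 and 121 FPKM in Uqcc3 siRNA replicates 1 and 2 and at 145 and 129 FPKM in control replicates 1 and 2. Both siRNA libraries lay below both controls, replicate 2 by little: its bounds (112 and 129 FPKM) overlapped those of control replicate 2 (122 and 137 FPKM). Its log2 difference was -0.52 (SE 0.61, limma adjusted p = 0.847), near the median of all genes. It was 0.00080 after quantile normalization and 0.030 when libraries were rescaled without mitochondrially encoded and ribosomal RNA, so its direction depended on the scaling. Ssbp1 (ENSMUSG00000029911.14) lies on chromosome 6 from 40471352 to 40484700, and the processed pseudogene Gm12115 on chromosome 11 matches 410 of its 456 coding bases at 97.3% identity. Gm12115 stood at 25.4 and 19.5 FPKM with siRNA and 33.6 and 39.9 FPKM in controls.

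Polg, the catalytic subunit of the DNA polymerase, was scarce and was the tested member with both siRNA libraries above both controls. It stood at 2.26 FPKM (bounds 0.420 and 4.11) in Uqcc3 siRNA replicate 1 and 7.34 FPKM (5.41 and 9.28) in replicate 2. In control replicate 1 it was listed at 0, and in control replicate 2 it stood at 1.02 FPKM (0.0284 and 2.01). The bounds implied about 6.03 and 57.7 fragments with siRNA and 4.23 in control replicate 2. The bounds of siRNA replicate 1 overlapped those of control replicate 2, and those of siRNA replicate 2 did not. Polg had a log2 difference of 1.88 (SE 0.92, limma adjusted p = 0.745), and 98.2% of tested genes had a lower one. Both siRNA libraries stayed above both controls under the 5 other scalings and corrections of the libraries (TPM, median of ratios, quantile normalization, rescaling without mitochondrially encoded and ribosomal RNA, and transcript length). For control replicate 1 this could hardly come out otherwise, as a value of 0 stays lowest under rescaling. The siRNA libraries also had the lower FPKM sums (596010 and 436400, against 682970 and 695430 in controls). TPM therefore raises siRNA values relative to the controls. Polg (ENSMUSG00000039176.17) lies on chromosome 7 from 79446231 to 79466362, and 822 of its 7837 transcript bases lie on exons of Fanci on the other strand. Fanci, a gene of DNA crosslink repair, stood at 0.124 and 5.57 FPKM in Uqcc3 siRNA replicates 1 and 2, and at 0.0128 and 1.3e-10 FPKM in control replicates 1 and 2. The level of Fanci thus was highest in the library where Polg was highest. The counting is not stated to use strand, so fragments of the shared stretch cannot be told apart.

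Polg2, the accessory subunit that raises the processivity of Polg, was at 5.97 and 6.54 FPKM in Uqcc3 siRNA replicates 1 and 2 and at 11.3 and 3.06 FPKM in control replicates 1 and 2. The siRNA libraries were within 1.10-fold of each other and lay between controls that differed 3.70-fold. This gave a log2 difference of 0.038 (SE 1.01, limma adjusted p = 0.999), and it was -0.76 without control replicate 2 and 0.84 without control replicate 1. Polg2 (ENSMUSG00000020718.12) lies on chromosome 11 from 106768253 to 106779537.

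Slirp, a small RNA-binding protein that works with Lrpprc to keep mitochondrial mRNAs stable, gave siRNA values close together and under those of the controls. It stood at 31.9 FPKM (bounds 24.7 and 39.0) and 33.6 FPKM (26.6 and 40.7) in Uqcc3 siRNA replicates 1 and 2, and at 82.4 FPKM (73.2 and 91.7) and 49.3 FPKM (42.3 and 56.3) in control replicates 1 and 2. The bounds of the groups did not overlap. The mean was 32.8 ± 1.26 FPKM with siRNA and 65.9 ± 23.4 FPKM in controls (SD, n = 2 each), 49.7% of the control mean. The log2 difference was -0.94 (SE 0.67, limma adjusted p = 0.764). The groups overlapped after rescaling to TPM (-0.52) and after rescaling without mitochondrially encoded and ribosomal RNA (-0.40). They stayed apart with median-of-ratios scaling (-0.52), quantile normalization (-0.55) and the correction for transcript length (-0.61). Slirp (ENSMUSG00000021040.15) lies on chromosome 12 from 87443896 to 87452206, and 2511 of the 2701 bases of its coding transcript lie on exons of Snw1 on the other strand. Snw1, a splicing and transcription coregulator, stood at 9.26 and 17.4 FPKM with siRNA and 36.4 and 13.8 FPKM in controls. Its groups overlapped, but it was highest in control replicate 1, as Slirp was.

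Lrpprc, the partner of Slirp, was scarce in all 4 libraries. It stood at 1.21 and 0.853 FPKM in Uqcc3 siRNA replicates 1 and 2 and at 0.656 and 0.420 FPKM in control replicates 1 and 2. Its bounds implied about 12.0, 8.70, 9.93 and 4.04 fragments in that order. Both siRNA libraries lay above both controls, but the bounds overlapped throughout. In the fit with no filter on low values its log2 difference was 0.40 (SE 0.51, limma adjusted p = 0.783). Lrpprc (ENSMUSG00000024120.12) lies on chromosome 17 from 84705247 to 84790789, with 38 exons.

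Nrf1, nuclear respiratory factor 1, is a nuclear activator known to bind promoters of several genes in this group, and is a different gene from Nfe2l1. It stood at 14.7 FPKM (bounds 11.8 and 17.6) in Uqcc3 siRNA replicate 1 and 30.7 FPKM (27.8 and 33.6) in replicate 2, and at 39.5 FPKM (36.2 and 42.8) and 35.2 FPKM (31.3 and 39.0) in control replicates 1 and 2. Replicate 1 lay well below both controls, while the bounds of replicate 2 overlapped those of control replicate 2. The controls were 1.12-fold apart and the siRNA libraries 2.08-fold apart. The log2 difference was -0.78 (SE 0.73, limma adjusted p = 0.811), -1.28 without siRNA replicate 2 and -0.27 without siRNA replicate 1. Under TPM and median-of-ratios scaling it was -0.36 in both, and the groups overlapped. They also overlapped after rescaling without mitochondrially encoded and ribosomal RNA (-0.24). With quantile normalization (-0.44) and the correction for transcript length (-0.62) they stayed apart. Nrf1 (ENSMUSG00000058440.14) lies on chromosome 6 from 30047988 to 30153458.

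**Figure D2:**
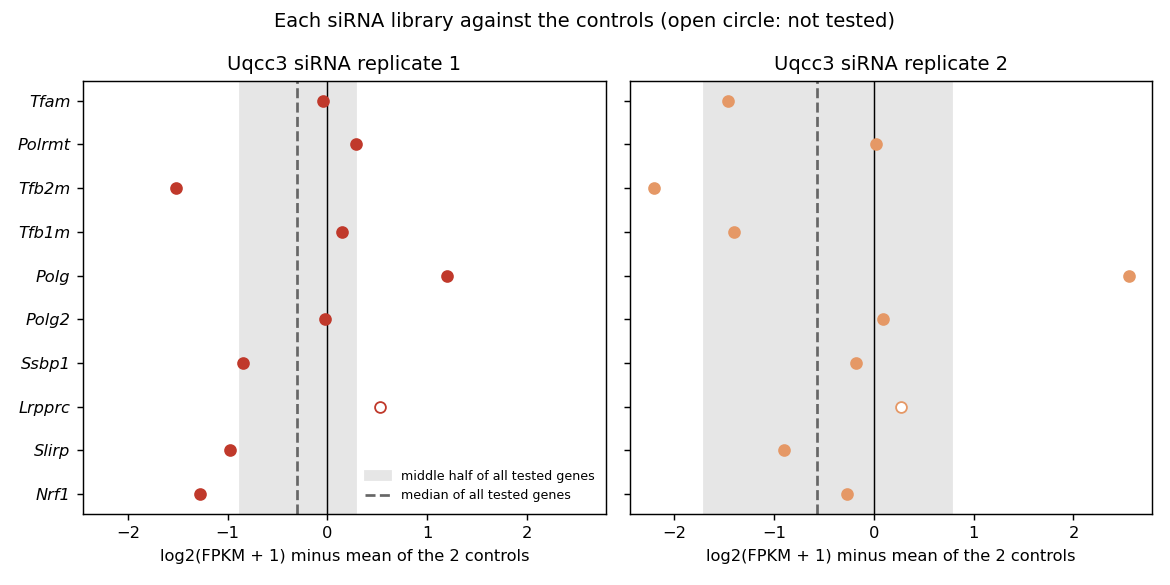
The log2(FPKM + 1) value of each gene in 1 siRNA library minus the mean of the 2 controls, for siRNA replicate 1 (left) and 2 (right). The grey band is the interquartile range and the dashed line the median of the 12390 tested genes (-0.30 in replicate 1, -0.57 in replicate 2). Tfb2m lies left of the band and Polg right of it in both panels, while Tfam, Tfb1m and Nrf1 sit differently in the 2 libraries.

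Several of the 10 genes had unlike values in siRNA replicates 1 and 2. The gap between them on the log2 scale exceeded the size of the group difference in 6 of the 9 tested genes. The gap between the controls did so in 3. Tfam and Tfb1m lay at -0.04 and 0.14 in siRNA replicate 1 and at -1.47 and -1.40 in replicate 2. Nrf1 and Ssbp1 ran the other way, with -1.28 and -0.85 in replicate 1 and -0.27 and -0.18 in replicate 2. The median of the 9 was -0.04 in replicate 1 and -0.27 in replicate 2, against -0.30 and -0.57 for all tested genes. Each library alone thus put the median of the 9 above that of all genes, whereas the difference of group means put it below.

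The order of levels was similar at the top in both groups and not resolved at the bottom. In the siRNA libraries Ssbp1 was highest (98.1 ± 31.9 FPKM, SD, n = 2), followed by Slirp (32.8), Nrf1 (22.7) and Tfb2m (17.0). In the controls Ssbp1 was again highest (137 ± 10.9 FPKM, SD, n = 2), followed by Slirp (65.9), Tfb2m (65.0) and Nrf1 (37.3). Libraries of Nrf1 and Tfb2m overlapped in the siRNA group, and libraries of Slirp and Tfb2m did so in the controls. Below them came Polrmt and then Polg2 in both groups. From Polg2 down, each neighbour in the order overlapped the next in both groups, and Lrpprc was at 1.03 FPKM with siRNA and 0.538 FPKM in controls. Ssbp1, Slirp, Tfb2m and Nrf1 together made up 83.2% and 88.7% of the summed FPKM of the 10 genes in Uqcc3 siRNA replicates 1 and 2, and 93.3% and 89.3% in control replicates 1 and 2. Their sum was 143 and 198 FPKM with siRNA and 349 and 261 FPKM in controls. The other 6 genes summed to 29.0 and 25.2 FPKM with siRNA and 25.1 and 31.2 FPKM in controls, so the groups overlapped there.

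Ratios of partner transcripts within a library do not change with the scaling of that library. A bias by transcript length, as seen in siRNA replicate 2, need not cancel between genes of unlike length. The ratio of Slirp to Lrpprc FPKM was 26.3 and 39.4 in Uqcc3 siRNA replicates 1 and 2, and 126 and 117 in control replicates 1 and 2. On the log2 scale this was 5.01 ± 0.41 with siRNA and 6.92 ± 0.07 in controls (SD, n = 2 each), a difference of -1.92 (two-sided exact permutation p = 0.333, the smallest that 2 libraries against 2 can give). The groups lay apart, but the bounds of Lrpprc imply few fragments. Tfb2m exceeded Tfb1m by 3.27-fold and 8.11-fold with siRNA and by 12.4-fold and 9.51-fold in controls, a log2 difference of -1.07 (exact permutation p = 0.333). The ratio of Tfam to Polrmt was 0.233 and 0.0340 with siRNA and 0.0188 and 0.922 in controls, where the groups overlapped (log2 difference -0.56, exact permutation p = 1.0). Polg2 exceeded Polg by 2.64-fold in siRNA replicate 1 and 2.99-fold in control replicate 2 and stood at 0.890 of it in siRNA replicate 2. In control replicate 1, where Polg was listed at 0, it has no ratio, so the groups were not compared. On the log2(FPKM + 1) scale the Tfb2m to Tfb1m difference was -1.24 before and after a correction for transcript length. That of Tfam to Polrmt was -0.91 before and -0.90 after it. No such corrected value was made for Slirp to Lrpprc, whose longest transcripts have 2701 and 4393 bases.

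**Figure D3:**
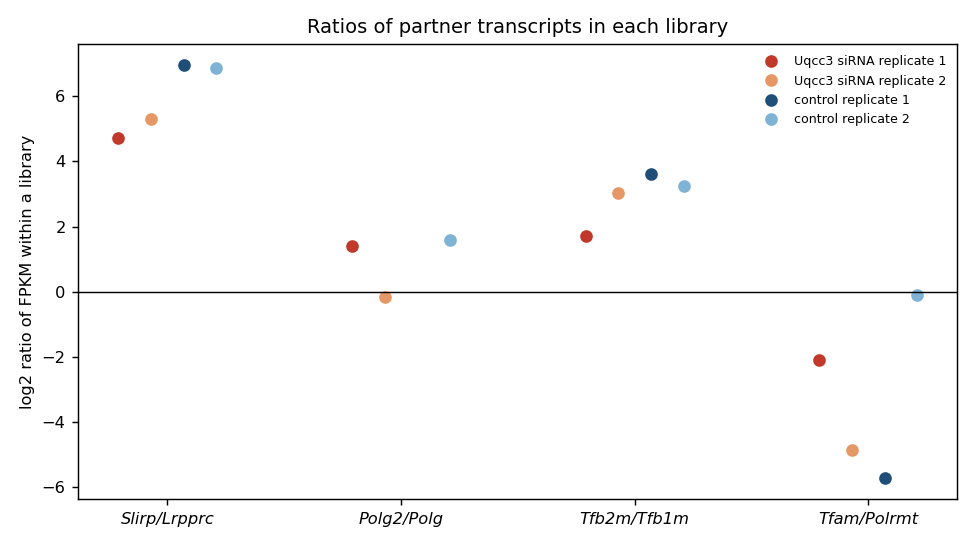
The log2 ratio of FPKM of 2 genes in the same library, 1 point per library, siRNA libraries left of the controls. The Slirp to Lrpprc and Tfb2m to Tfb1m ratios are lower in the siRNA libraries than in the controls, and the Tfam to Polrmt ratios of the controls span those of the siRNA libraries.

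Promoters were looked at because Nrf1 and the GABP factors, both measured here, are known regulators of genes in this group. RefSeq windows of 300 bases (250 before to 50 after the annotated start, build GRCm38.p6, the assembly of mm10) were found for all 10 genes, in 11 windows since Nrf1 has 2. An NRF1 motif was searched on both strands as GCGCA, then any base, then GCGC, and an ETS motif of the GABP type as CCGGAAG and its reverse complement CTTCCGG. The NRF1 motif was in 1 of the 11 windows, that of Polrmt, against 4.60% of all 32851 windows and 10.2% of those of tested genes. There it matched at bases 245 to 254 and, overlapping, 251 to 260. The ETS motif was in 6 of the 11, against 8.86% of all windows and 17.5% of those of tested genes. Of the 4 genes that lay below the controls, Slirp held 3 ETS matches and Ssbp1 held 1. Tfb2m and Nrf1 held no exact match to either motif. Polg, above both controls, held 1 ETS match. The sequences of Tfb2m, Slirp and Ssbp1, which lay below, Polg, which lay above, and Polrmt, which overlapped, are given from 5′ to 3′ on the gene's strand, with the matches in capitals.
Tfb2m, chr1:179546227-179546526, minus strand: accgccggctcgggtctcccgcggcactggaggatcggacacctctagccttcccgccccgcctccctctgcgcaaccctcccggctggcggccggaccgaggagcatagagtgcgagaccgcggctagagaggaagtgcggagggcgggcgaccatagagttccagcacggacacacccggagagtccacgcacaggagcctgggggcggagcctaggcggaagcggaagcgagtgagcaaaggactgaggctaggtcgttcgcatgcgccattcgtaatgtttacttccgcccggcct
Slirp, chr12:87443646-87443945, plus strand: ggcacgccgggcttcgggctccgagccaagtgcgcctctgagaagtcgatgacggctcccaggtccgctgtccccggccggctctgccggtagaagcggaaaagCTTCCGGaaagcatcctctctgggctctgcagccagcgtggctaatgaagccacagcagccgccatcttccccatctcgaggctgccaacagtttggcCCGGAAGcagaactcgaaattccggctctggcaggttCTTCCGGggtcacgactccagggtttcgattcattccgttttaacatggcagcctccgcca
Ssbp1, chr6:40471218-40471517, plus strand: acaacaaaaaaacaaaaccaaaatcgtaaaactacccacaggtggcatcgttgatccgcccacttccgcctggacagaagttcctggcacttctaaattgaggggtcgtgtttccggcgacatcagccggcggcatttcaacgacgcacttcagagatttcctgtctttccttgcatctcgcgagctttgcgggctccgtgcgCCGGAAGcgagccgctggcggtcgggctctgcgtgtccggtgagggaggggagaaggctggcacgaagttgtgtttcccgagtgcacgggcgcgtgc
Polg, chr7:79466224-79466523, minus strand: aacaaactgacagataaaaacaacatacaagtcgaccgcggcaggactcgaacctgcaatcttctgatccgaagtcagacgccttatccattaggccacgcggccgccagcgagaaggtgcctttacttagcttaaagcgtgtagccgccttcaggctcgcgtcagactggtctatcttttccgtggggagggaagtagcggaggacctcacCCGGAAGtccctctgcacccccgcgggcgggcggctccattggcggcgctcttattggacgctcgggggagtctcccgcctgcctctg
Polrmt, chr10:79746532-79746831, minus strand: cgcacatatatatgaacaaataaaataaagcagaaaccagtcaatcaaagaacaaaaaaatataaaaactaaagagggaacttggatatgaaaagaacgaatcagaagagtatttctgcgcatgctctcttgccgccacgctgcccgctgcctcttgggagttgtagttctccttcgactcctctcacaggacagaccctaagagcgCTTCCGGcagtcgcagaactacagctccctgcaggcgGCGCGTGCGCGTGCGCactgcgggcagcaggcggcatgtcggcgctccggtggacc
Ssbp1, below, and Polg, above, each held a single forward ETS match, starting at positions -47 and -38 from the annotated start. The direction of Ssbp1 depended on the scaling, and Polg rests on few implied fragments. Whether these matches bear on the levels was not tested. Across tested genes with a window, the median log2 difference was -0.37 for the 1670 with an ETS match and -0.28 for the 6517 without, and -0.28 for the 981 with an NRF1 match and -0.31 for the 7206 without. A match is a string of letters in the window and not evidence that a factor binds there. Only exact strings were searched, so a window without a match may hold a variant of the motif.

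A further 80 genes of mitochondrial DNA and RNA maintenance, listed by role, were set beside the 10. All 80 were in the tables and 68 were tested. None passed in limma (0 of 68), and 5 had an unadjusted p under 0.05, all lower with siRNA (against 5.21% of all tested genes). In 28 of the 68 (41.2%, against 30.0% of all tested genes) the groups lay apart with siRNA lower, and in 2 (2.94%, against 8.60%) they lay apart with siRNA higher. Of those below, Lig3, Primpol and Mterf1a met the filter through the controls alone, which fixed their place. The share of all tested genes was not freed of such genes. The 2 above were Dhx30, an RNA helicase of mitochondrial RNA granules, and the transcription factor Yy1, both named after their values were seen. With median-of-ratios scaling 18 of 68 lay below and 7 above (18.8% and 17.3% of all tested genes). With a correction for transcript length 23 of 68 lay below and 7 above (18.6% and 16.5% of all tested genes). The median log2 difference of the 68 was -0.58, or -0.19 from the median of all tested genes.

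Genes of replication and repair had a median of -0.88 over 11 tested members, against -0.39 for all tested genes, with 6 below both controls (54.5%, against 30.0% of all tested genes) and 0 above (against 8.60%). Endog, a nuclease of mitochondria, stood at 4.68 and 5.1e-10 FPKM in Uqcc3 siRNA replicates 1 and 2 and at 15.8 and 16.8 FPKM in control replicates 1 and 2 (log2 difference -2.86). Lig3, the ligase that seals mitochondrial DNA, and Primpol, a primase-polymerase, had log2 differences of -1.96 and -1.80 at low levels. Both met the filter through the controls alone, so their place below was fixed by the filter. Elongation and termination factors had a median of -1.23 over 4 tested members. Of these, 3 lay below both controls (against 30.0% of all tested genes) and 0 above (against 8.60%). Tefm, the elongation factor of Polrmt, stood at 24.7 and 0.214 FPKM with siRNA and 40.1 and 33.7 FPKM in controls, so its difference (-2.76) rested mostly on siRNA replicate 2. Mterf3 and Mterf1a, members of the termination factor family, had log2 differences of -1.26 and -1.20. Mterf1a too met the filter through the controls alone, so its place below was fixed by the filter. The fourth member, Mterf4, stood at 2.39 and 0.321 FPKM with siRNA and 4.00 and 0.0166 FPKM in controls, and its groups overlapped (log2 difference -0.09).

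Genes of RNA processing and decay had a median of -0.47 over 24 tested members, near that of all tested genes, with 9 below both controls (37.5%, against 30.0% of all tested genes) and 1 above (4.17%, against 8.60%). Trmt10c, a methyltransferase subunit of mitochondrial RNase P, was even between replicates, at 15.7 and 16.7 FPKM in Uqcc3 siRNA replicates 1 and 2 and at 52.1 and 61.7 FPKM in control replicates 1 and 2. Its log2 difference was -1.75 (SE 0.68, limma adjusted p = 0.745), and it was among the 5 with an unadjusted p under 0.05. Hsd17b10, another subunit of that enzyme, stood at 6.04 and 0.0955 FPKM with siRNA and 11.6 and 37.6 FPKM in controls. Prorp, its nuclease subunit, named after its values were seen, stood at 29.9 and 33.9 FPKM with siRNA and 63.8 and 34.7 FPKM in controls. The log2 difference of Prorp was -0.55 (SE 0.69, limma adjusted p = 0.857), against a median of -0.39 for all tested genes, and its second siRNA library lay just under the lower control. Pet100 (-2.55) was in the same list but is known as an assembly factor of complex IV.

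In the nucleotide supply list the median was -0.68 over 10 tested members. Of these, 3 lay below both controls, the same share (30.0%) as of all tested genes, and 0 above (against 8.60%). Mpv17, an inner membrane protein needed to keep mitochondrial DNA in some tissues, had the smallest p of the genes named from the 68, at 7.53 and 5.78 FPKM in Uqcc3 siRNA replicates 1 and 2 and at 31.4 and 52.5 FPKM in control replicates 1 and 2. Its log2 difference was -2.45 (SE 0.78, limma adjusted p = 0.745). Samhd1, which degrades deoxynucleotides, and Suclg2, a subunit of succinyl-CoA ligase, had log2 differences of -1.08 and -1.47, and the groups of Suclg2 overlapped. Nucleoid and turnover genes had a median of -0.54 over 7. There 2 lay below both controls (28.6%, against 30.0% of all tested genes) and 0 above (against 8.60%). Of these, Phb, Clpx and Lonp1, the protease that degrades Tfam, had log2 differences of -0.99, -0.84 and -0.89. The groups of Clpx overlapped.

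Nuclear regulators had a median of -0.51 over 12 tested members, with 5 below both controls (41.7%, against 30.0% of all tested genes) and 1 above (8.33%, against 8.60%). Gabpa, the DNA-binding subunit of GABP, stood at 133 and 79.6 FPKM in Uqcc3 siRNA replicates 1 and 2 and at 252 and 211 FPKM in control replicates 1 and 2 (log2 difference -1.16, limma adjusted p = 0.745). Gabpb2, a partner subunit, stood at 19.2 and 5.85 FPKM with siRNA and 26.6 and 64.2 FPKM in controls. Tfdp1 (-2.21) was in this list but is best known as a partner of E2F factors in the cell cycle.

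**Figure D4:**
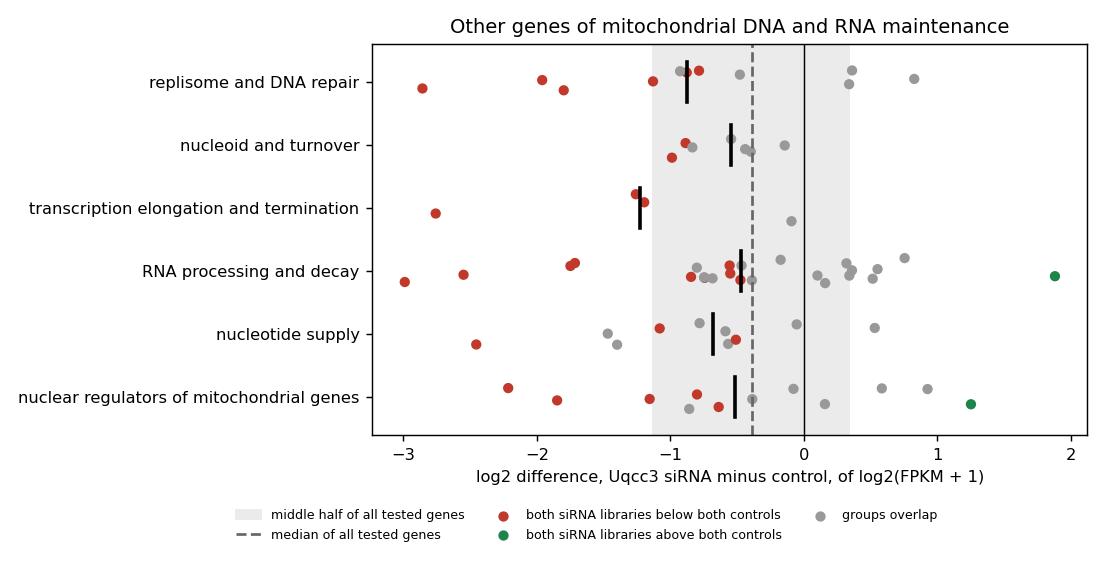
Log2 difference of each of the 68 tested genes by role, siRNA minus control, with red where the siRNA libraries lay below the controls, green where they lay above and grey where the groups overlapped. Black bars are role medians, the dashed line is the median of all tested genes (-0.39) and the grey band their interquartile range. The roles' medians lie between -1.23 and -0.47.

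The RNA that these factors make was read from the same libraries. The summed FPKM of 13 mitochondrially encoded mRNAs was 17.9% and 3.41% of the library total in Uqcc3 siRNA replicates 1 and 2, and 9.98% and 11.8% in control replicates 1 and 2. All mitochondrially encoded RNA together, ribosomal and transfer RNA included, made up 28.0% and 16.6% with siRNA and 17.4% and 18.0% in controls, so replicate 2 was close to the controls on that measure. mt-Cytb was the largest part of the mRNA sum except in siRNA replicate 2, where mt-Nd1 was. On the log2(FPKM + 1) scale, 11 of the 13 mRNAs lay above the mean of the controls in siRNA replicate 1 and 11 lay below it in replicate 2. These counts include mRNAs at low levels: in any library mt-Nd3 reached at most 2.96 FPKM, mt-Nd4l 6.25 FPKM, and mt-Co2 and mt-Co3 19.4 FPKM. mt-Atp8 reached at most 75.4 FPKM and mt-Atp6 108 FPKM, so these mRNAs add little to the sums. Near-identical copies were not searched for the mitochondrially encoded mRNAs. None passed in limma, 0 had an unadjusted p under 0.05, and in 0 of the 13 did the groups separate in either direction. mt-Co1, a core subunit of complex IV, stood at 6844 and 727 FPKM with siRNA and 2895 and 4527 FPKM in controls, while mt-Cytb, the complex III subunit encoded there, stood at 57615 and 3853 FPKM with siRNA and 44269 and 47540 FPKM in controls. Tfb2m thus lay below both controls in the library with the highest share of mitochondrially encoded mRNA and in the one with the lowest.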

How the data were processed

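RNA of 4 libraries was measured after full-length amplification of oligo(dT)-primed cDNA, per the labels' protocols, so mRNAs are favoured. The authors deposited 1 table per library of FPKM with lower and upper bounds by gene (file headers). Cufflinks 2.2.1 and Cuffdiff 2.2.1 are among the tools in the submitters' processing notes, with STAR 2.7.3a, Trim Galore 0.6.5, SAMtools 1.7 and the build mm10. No source used here gives the annotation release. No counts were used. The fragments behind a value came from the bounds, read as 2 errors from the value with Poisson error: 2 times FPKM, divided by its distance to the upper bound, squared. The bounds do not cover spread between libraries. Where bounds hold more than counting error, the implied fragments are too few. Summed over all genes, implied fragments were 3942760 and 4152860 in Uqcc3 siRNA replicates 1 and 2. They were 6508770 and 6882640 in control replicates 1 and 2. These sums are below the stated depths, so the implied fragments of single genes may be too low. Depth is the median over long genes with 1 transcript. Replicates were numbered in accession order.

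Rows of 1 gene were summed, and 2 genes with a failed estimate were left out. The 12390 genes at 1 FPKM or more in at least 2 libraries were tested on log2(FPKM + 1) with limma 3.58.1 (R 4.3.3), with an abundance trend, two-sided, Benjamini-Hochberg adjusted, checked on simulated data. GENCODE M21 gave gene models and coordinates (GRCm38), and blastn 2.17.0 gave near-identical copies (at least 90% identity over 200 bases of coding sequence). Named beside the 10 genes were Uqcc3, 2 mitochondrially encoded mRNAs and the 3 genes per role with the smallest p. The alternatives varied pseudocount, filter, scaling, trend, length correction, block and libraries. The members and lists were chosen with earlier results of these data known.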

Additional observations from a re-analysis of the deposited data

How the results depend on the processing

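Of 133 recomputed log2 differences of the 9 tested genes over 15 alternatives, 126 kept their direction, none passed an adjusted p of 0.05 in limma, and 7 changed sign: Ssbp1 with quantile normalization (0.00080) and with rescaling without mitochondrially encoded and ribosomal RNA (0.030), Polrmt without control replicate 1 (-0.22), Tfam and Polg2 without control replicate 2 (0.92 and -0.76), and Tfb1m and Polg2 without siRNA replicate 2 (0.14 and -0.019). Tfb2m ranged from -2.25 to -1.34 (adjusted p 0.0616 to 1.00) and Polg from 1.20 to 3.65 (adjusted p 0.127 to 1.00). With single libraries left out, Tfam ranged from -2.43 to 0.92, Polrmt from -0.22 to 0.53, Tfb1m from -1.40 to 0.14 and Polg2 from -0.76 to 0.84. Where a group keeps 1 library, it is assumed to vary like the other group.

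The median of the 9 tested genes lay -0.24 from that of all genes. Over the same 9 it lay -0.077 with a pseudocount of 0.1, -0.11 with quantile normalization, -0.41 with the length correction, and between -0.27 and 0.30 with single libraries left out. Over 10 genes, as Lrpprc entered, it lay -0.51 with no filter, -0.14 with TPM and -0.11 with rescaling without mitochondrially encoded and ribosomal RNA. In the TPM and rescaled fits Lrpprc met the filter through the siRNA libraries, where it was higher. Over 7 genes, without Tfam, Polg and Lrpprc, the median lay -0.090 with a filter at 5 FPKM. Of these genes 4 lay below both controls (30.0% of all tested genes did), against 1 with TPM (20.6%), 1 without mitochondrially encoded and ribosomal RNA (17.9%), 2 with median-of-ratios scaling (18.8%) and 4 to 6 with single libraries left out (41.9% to 50.5%). The count was 3 with quantile normalization (18.7%) and 4 with the length correction (18.6%). The share of all genes moved as well. The offset of the 68 further genes was -0.19, that of the 77 tested with no filter -0.48, and that of the 68 was -0.35 with the length correction and between -0.42 and -0.18 with single libraries left out.

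Genes called over the whole table were 0, or 0 to 1477 with single libraries left out, the 1477 without siRNA replicate 1 (9 of the 68 further genes, none of the 9). The log2 ratio difference of Tfam to Polrmt ranged from -3.37 to 2.24, that of Slirp to Lrpprc from -2.21 to -1.62, and that of Tfb2m to Tfb1m from -1.73 to -0.42 with single libraries left out. The labels give no shared replicate numbers. A replicate block by the numbers 2 and 3 in the names of the deposited tables called 1 gene. Same-numbered libraries deviated together with a correlation of 0.058 across genes. The labels do not say what these numbers stand for, and whether they mark a shared batch was not tested. No ratio of Polg2 to Polg could be compared under any setting. Few implied fragments limit Lrpprc (4.04 to 12.0), Tfam (0.332 in control replicate 1) and Polg (6.03 in siRNA replicate 1). The cause of the changes between settings was not tested.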
